A study of Arabidopsis thaliana with 10 samples.

Results

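The question was whether roots of the Arabidopsis thaliana mutant bts-3 answer iron withdrawal as wild-type roots do. For every probe set paired with exactly 1 gene, the iron response of WT (Col) roots, -Fe minus +Fe, was subtracted from that of bts-3 roots. This gave a genotype by iron interaction for 16722 of the 28583 probe sets of the array. B5 medium carried the plants for their first 2 weeks, and they were then kept for 3 days (72 h) on medium with iron (+Fe) or without it (-Fe), and root RNA was hybridised to 10 Affymetrix arrays. There were 2 arrays each for WT +Fe and WT -Fe and 3 each for bts-3 +Fe and bts-3 -Fe, described as biological replicates. The labels do not state the lesion in bts-3 or whether it is 1 of several lines, and the BTS transcript is not analysed here, which leaves the genotype labels without a check of their own.

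BTS (BRUTUS) is known as an E3 ubiquitin ligase with iron-binding domains that restrains the iron-deficiency response. It acts on basic helix-loop-helix (bHLH) factors that switch on a second layer of bHLH factors when iron is short. That layer in turn raises the genes by which roots acidify, chelate, reduce and take up iron, including the synthesis and release of coumarins.

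All values are RMA levels or differences on the log2 scale, so 1 is a 2-fold change. Array values are listed by replicate number, 1 and 2 for WT and 1 to 3 for bts-3, and SE is the standard error from the fit. The bts-3 arrays were blocked by replicate number, so each bts-3 response is a mean of 3 differences within numbered pairs. The arrays differed in ways that bear on every result. Along the first principal component (29.5% of the variance) bts-3 -Fe replicate 1 lay at 41.5, beside WT -Fe at 43.6 and 21, while all other arrays lay between -25.6 and -5.97. The same arrays had the lowest medians, 5.27 in bts-3 -Fe replicate 1 and 5.30 and 5.35 in WT -Fe. They also had the highest lower quartiles, at 2.99, 2.91 and 2.83. The part of this difference in the results was not tested. The mean of 6 iron-deficiency signalling genes was lowest in bts-3 replicate 3 on both media, at 6.84 on +Fe (7.44 and 7.78 in replicates 1 and 2) and 7.24 on -Fe (9.22 and 7.97).

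The iron response differed between the genotypes for 33 probe sets, 0.197% of those tested (limma, adjusted p under 0.05). The response was lower in bts-3 for 24 (0.144%) and higher for 9 (0.0538%). In 22 of the 33 the WT response was 1 or more in size and the bts-3 response under 1, here called lost. In 4 both responses were 1 or more with opposite signs (reversed), in 4 only the bts-3 response was 1 or more (gained), in 2 both were 1 or more in the same direction, and in 1 both were under 1. Over all 16722 probe sets 435 had a WT response of 1 or more in size, 190 a bts-3 response of that size and 45 both. An unadjusted p under 0.05 in the limma fit was found for 1346 probe sets, beside 836.1 expected if no response differed.

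The count rests on the pairing inside bts-3 and on single arrays. Without the block 1 probe set was called, AT3G13840. Without bts-3 replicate 1, which holds the array that stood apart, 87 were called, among them 31 of the 33. Leaving out either array of a bts-3 pair gives the same fit. It was 5 without bts-3 replicate 2, 1 and 3 without WT +Fe replicates 1 and 2, and 8 without WT -Fe replicate 1. Without WT -Fe replicate 2 it was 30, and without bts-3 replicate 3 it was 24.

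**Figure D1:**
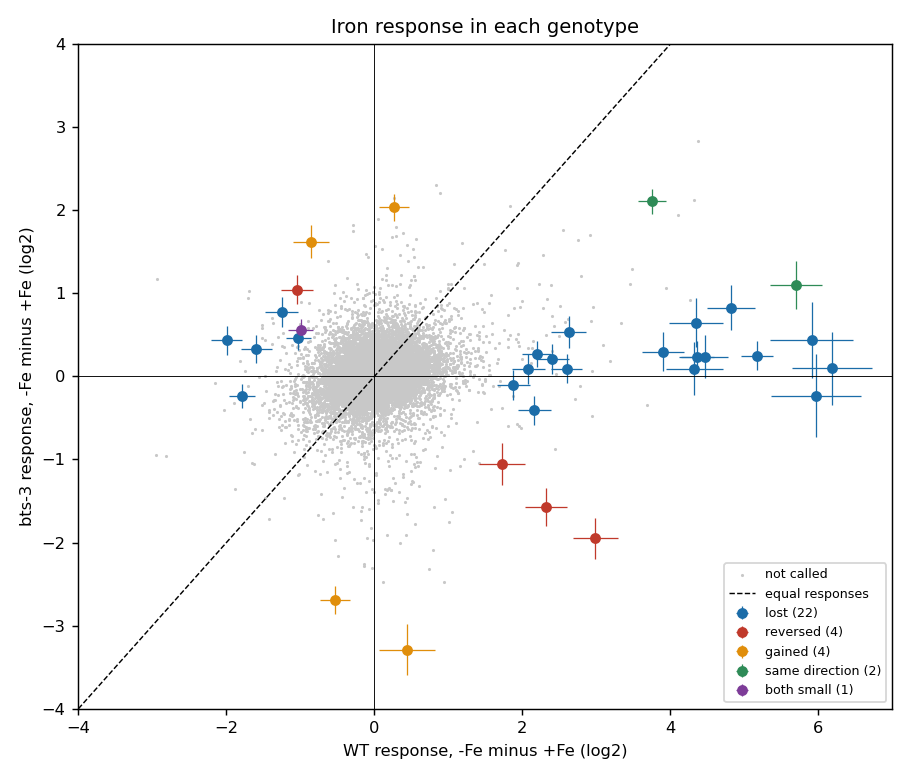
Response of each probe set to iron withdrawal (-Fe minus +Fe, log2) in WT on the horizontal axis and in bts-3 on the vertical axis, for 16722 probe sets; grey points were not called, coloured points are the 33 called ones by class with bars of 1 SE, and the dashed line marks equal responses. The lost class lies along the horizontal zero line, with WT responses up to 6.19 and bts-3 responses under 1 in size.

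Lost induction was the main pattern. Of the 22 lost responses, 17 were inductions in WT, each called there by limma, and none of the 22 was called in bts-3. Across the 17 the WT response ranged from 1.88 to 6.19 with a median of 4.32, and the bts-3 response from -0.41 to 0.83 with a median of 0.23. These genes were not low in bts-3. In all 17 the bts-3 +Fe arrays lay above both WT +Fe arrays without overlap, by 1.06 to 4.86 on average, as was so for 13.4% of all probe sets tested. Means on bts-3 -Fe lay below WT -Fe for all 17, with differences of -2.17 to -0.51, and the arrays of the genotypes did not overlap on -Fe for 6 of them (19.5% of all probe sets, in either direction). With the step from WT +Fe to WT -Fe set at 100%, bts-3 stood at a median of 61.5% of it with iron (44% to 92.2%) and 71.6% without iron (50.6% to 88.5%). The 17 were chosen on the interaction and on the size of both responses, which hold all 4 groups. These calls and placements therefore describe them and test nothing.

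Among the regulators, BHLH101, a bHLH factor of the second layer, read 3.15 and 3.47 on WT +Fe and 7.78 and 7.77 on WT -Fe. In bts-3 it read 7.27, 7.78 and 6.0 on +Fe and 8.04, 7.14 and 6.59 on -Fe. Every bts-3 array stood far above the WT +Fe arrays, and the bts-3 media overlapped. The WT response was 4.46 (SE 0.32), the bts-3 response 0.24 (SE 0.26) and the interaction -4.22 (SE 0.41, limma adjusted p = 0.01). Within the bts-3 pairs it was 0.77, -0.64 and 0.59, so the pairs did not share a direction.

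BTSL1 (AT1G74770), a ligase related to BTS, had levels of 9.55 and 9.69 on WT +Fe and 12.07 and 11.98 on WT -Fe. Its bts-3 levels were 11.31, 11.58 and 10.70 on +Fe and 12.01, 11.60 and 10.59 on -Fe, between the WT groups on +Fe. The interaction was -2.20 (SE 0.29, limma adjusted p = 0.029). Its relative BTSL2 (AT1G18910) read 8.73 in both WT +Fe arrays and 10.83 and 10.53 on WT -Fe, with 9.65, 10.06 and 9.07 on bts-3 +Fe and 10.51, 10.43 and 8.95 on bts-3 -Fe. Its interaction of -1.59 (SE 0.31) did not pass (limma adjusted p = 0.125).

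The short IRON MAN peptides IMA1 and IMA2, known to promote the iron-deficiency response, had larger bts-3 responses by value than BHLH101. IMA2 (AT1G47395) read 2.88 and 2.86 on WT +Fe and 6.32 and 8.06 on WT -Fe. In bts-3 it read 4.64, 5.15 and 4.18 on +Fe and 8.77, 6.02 and 5.55 on -Fe, higher on -Fe in all 3 pairs. Its bts-3 response was 2.12 (SE 0.60) beside 4.32 (SE 0.74) in WT, and that of IMA1 (AT1G47400) 1.70 (SE 0.52) beside 2.92 (SE 0.64). The IMA responses in bts-3 lay mostly in replicate 1, with pair differences of 4.13, 0.87 and 1.37 for IMA2 and 3.44, 1.02 and 0.63 for IMA1, and without it the means were 1.12 and 0.83. Neither interaction passed, at -2.20 (SE 0.95) and -1.22 (SE 0.83). The regulator PYE had an interaction of -0.82 (SE 0.36) that did not pass. Of the 6 signalling genes measured of 13, BHLH101 and BTSL1 passed and all 6 values were negative, with a median of -1.89 beside 0.01 over all probe sets tested. None of the 5 measured upstream bHLH regulators passed (median -0.15), ILR3 among them at -0.35 (SE 0.26).

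Among the genes of coumarin metabolism, S8H (AT3G12900), the hydroxylase that makes fraxetin, had the largest WT response of all probe sets tested. It read 6.61 and 6.43 on WT +Fe and 12.72 and 12.70 on WT -Fe. In bts-3 it read 11.46, 11.14 and 9.78 on +Fe and 12.72, 11.82 and 8.14 on -Fe. The WT arrays agreed closely within each medium, whereas the bts-3 -Fe arrays spanned from the WT -Fe level to well below it. Its WT response was 6.19 (SE 0.54), its bts-3 response 0.10 (SE 0.44) and its interaction -6.09 (SE 0.70, limma adjusted p = 0.0174). The pair differences in bts-3 were 1.26, 0.67 and -1.64.

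BGLU42, a beta-glucosidase that acts on stored coumarin glucosides, read 7.44 and 7.77 on WT +Fe and 12.08 and 11.81 on WT -Fe. In bts-3 it read 9.89, 10.16 and 8.50 on +Fe and 11.45, 10.80 and 8.23 on -Fe. All bts-3 arrays lay between the WT groups. The interaction was -3.70 (SE 0.47, limma adjusted p = 0.0267). COSY (AT1G28680), coumarin synthase, did not pass in either of its 2 probe sets, with interactions of -0.87 (SE 0.30) and -1.01 (SE 0.35). UGT72E1, a UDP-glucosyl transferase of phenylpropanoids, lay just outside the threshold with an interaction of -1.97 (SE 0.30, limma adjusted p = 0.052). It read 9.19 and 9.09 on WT +Fe, 11.27 and 11.25 on WT -Fe, 10.58, 11.08 and 10.04 on bts-3 +Fe and 11.22, 11.23 and 9.72 on bts-3 -Fe. HCT, of the same pathway, had an interaction of -0.74 (SE 0.31) and did not pass.

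AT5G38820, which the annotation used here leaves without a name, had the smallest adjusted p. It read 5.09 and 5.17 on WT +Fe and 10.28 and 10.30 on WT -Fe. In bts-3 it read 9.08, 9.66 and 7.08 on +Fe and 9.79, 9.79 and 6.99 on -Fe. No bts-3 array reached either WT group on its own medium, and the lines of the bts-3 pairs were nearly flat, at 0.71, 0.13 and -0.09. The interaction was -4.92 (SE 0.28, limma adjusted p = 0.000534). It was called in 20 of 21 alternatives, where a left-out bts-3 pair counts for each of its arrays. The exception was the fit without the block (limma adjusted p = 0.695).

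AT3G07720, also a locus known to rise in iron deficiency, read 6.27 and 6.60 on WT +Fe, 10.87 and 10.70 on WT -Fe, 9.52, 10.67 and 7.81 on bts-3 +Fe and 10.14, 10.43 and 8.14 on bts-3 -Fe. Its interaction was -4.12 (SE 0.31, limma adjusted p = 0.00274). AT1G52120 had the largest interaction in size, -6.20 (SE 0.79). It read 2.95 and 3.71 on WT +Fe, 9.16 and 9.43 on WT -Fe, 8.33, 8.64 and 7.59 on bts-3 +Fe and 9.58, 8.70 and 5.59 on bts-3 -Fe, with pair differences of 1.25, 0.06 and -2.01. The remaining loci of this list that were lost were AT3G61930 (interaction -4.23), AT3G06890 (-2.50) and AT2G20030 (-1.98). In the list of other iron-deficiency loci 15 of 23 were measured, 7 passed with a lower response in bts-3 and 14 of 15 values were negative (median -2.19). In the uptake and coumarin, signalling and other iron lists together, 12 of 25 measured loci passed in that direction. Over all probe sets 0.144% did. The lists were drawn up with earlier results of these data known, so this share describes them and tests nothing.

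CYP71B5, a cytochrome P450, read 2.78 and 3.89 on WT +Fe, 9.35 and 9.15 on WT -Fe, 7.35, 7.16 and 5.43 on bts-3 +Fe and 9.08, 7.72 and 4.44 on bts-3 -Fe. Its interaction was -5.47 (SE 0.72, limma adjusted p = 0.029). GH3.3, an enzyme that conjugates the auxin indole-3-acetic acid to amino acids, stood highest of the 17 on the WT scale with iron, at 92.2% of the WT step. It read 5.61 and 5.76 on WT +Fe, 7.66 and 8.03 on WT -Fe, 9.15, 7.65 and 6.23 on bts-3 +Fe and 8.65, 6.96 and 6.19 on bts-3 -Fe. All 3 of its bts-3 pairs were lower on -Fe, by small amounts (-0.50, -0.69 and -0.04), and the interaction was -2.57 (SE 0.28, limma adjusted p = 0.0142). The serine carboxypeptidase-like gene scpl20 had an interaction of -1.92 (SE 0.25). The other lost inductions were AT4G17680 (-3.99), AT4G19370 (-3.60), AT1G14185 (-2.09) and AT3G57160 (-1.99).

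**Figure D2:**
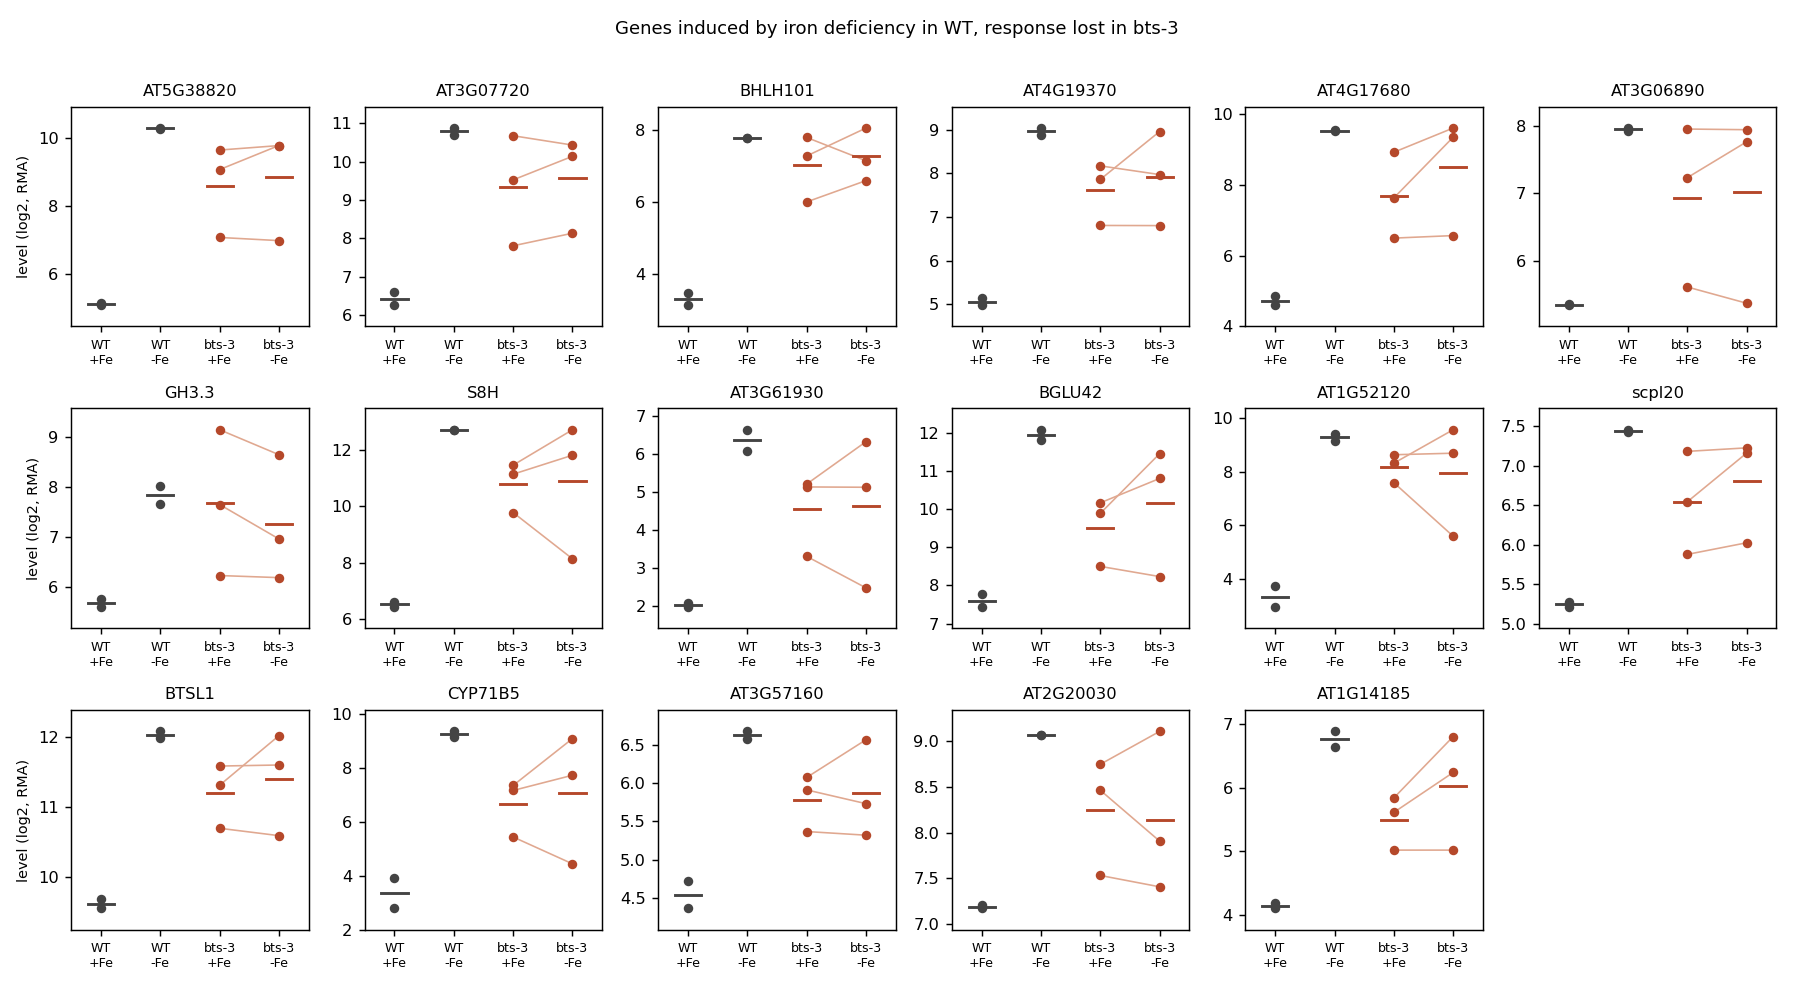
Levels (log2, RMA) of the 17 genes with a lost induction in every array, by group; points are arrays, short bars are group means and thin lines join the numbered bts-3 pairs. In each panel the bts-3 +Fe arrays lie above the WT +Fe arrays, and bts-3 replicate 3 is the lowest bts-3 array on both media.

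The bts-3 replicates differed in both level and response. In all 17 genes replicate 3 was the lowest bts-3 array on +Fe and again on -Fe. The median pair difference over the 17 genes was 0.77 in replicate 1, 0.04 in replicate 2 and -0.09 in replicate 3, and the share of genes higher on -Fe was 15, 10 and 5 of 17. Without replicate 1 the interaction of BHLH101 was -4.49, of S8H -6.67, of BTSL1 -2.45 and of AT5G38820 -5.15, each called by limma. BTSL1 was not called without replicate 2 or without replicate 3. Over all left-out arrays its interaction ranged from -2.45 to -2.04. The interaction was larger in size without replicate 1 for 15 of the 17 genes and smaller for 2, GH3.3 (-2.53) and AT3G57160 (-1.86).

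MTP8 (AT3G58060), a vacuolar transporter known to sequester manganese in iron-deficient roots, and AT5G62420 kept a response in the same direction at a reduced size. MTP8 read 4.59 and 4.50 on WT +Fe and 10.01 and 10.47 on WT -Fe. In bts-3 it read 7.54, 7.07 and 5.37 on +Fe and 9.48, 8.22 and 5.56 on -Fe, higher on -Fe in every pair but by only 0.19 in replicate 3. Its WT response was 5.70 (SE 0.35) and its bts-3 response 1.09 (SE 0.29), with an interaction of -4.61 (SE 0.46, limma adjusted p = 0.0107). The bts-3 response alone was not called (limma adjusted p = 0.255), and without replicate 1 its mean was 0.67, under the size of 1 that sets the class.

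AT5G62420 differed from the other induced genes in its level with iron. It read 4.72 and 4.55 on WT +Fe and 5.15, 5.76 and 3.75 on bts-3 +Fe, so the genotypes overlapped there, and it was the 1 probe set of the 33 of which this held. On -Fe it read 8.22 and 8.55 in WT and 7.17, 7.95 and 5.85 in bts-3. The bts-3 pairs differed by 2.03, 2.19 and 2.10, nearly alike despite unlike levels. The interaction was -1.64 (SE 0.24, limma adjusted p = 0.046), and no fit that left out an array called it.

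Lost repression was found for 5 genes, which fell in WT on -Fe and were already low in bts-3 with iron. In all 5 the bts-3 +Fe arrays lay below both WT +Fe arrays, with mean differences of -2.32 to -1.27 (so placed were 15.9% of all probe sets), and on -Fe the genotypes overlapped. These 5 too were chosen on the interaction, so their placement describes them and tests nothing. AT3G13840 read 5.85 and 5.51 on WT +Fe, 3.85 and 3.52 on WT -Fe, 3.20, 3.41 and 3.48 on bts-3 +Fe and 3.87, 3.77 and 3.74 on bts-3 -Fe. Its interaction was 2.43 (SE 0.27, limma adjusted p = 0.0154). AT1G52790 read 4.81 and 4.97 on WT +Fe, 3.04 and 3.55 on WT -Fe, 2.73, 2.57 and 2.80 on bts-3 +Fe and 3.09, 2.82 and 3.18 on bts-3 -Fe (interaction 1.93, SE 0.27). The bts-3 levels of AT1G52790 lie near the lower quartiles of the arrays, 2.61 to 2.99. Near or below them also lay WT +Fe arrays of genes that rose in WT. Among them were both arrays of AT3G61930 (2.08 and 1.98) and of IMA2 (2.88 and 2.86). For CYP71B5 (2.78), AT1G52120 (2.95) and AT1G07885 (2.92) it was the lower array. The part of this floor in these results was not tested.

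KIN2, a small hydrophilic protein induced by cold and abscisic acid, was far from that floor. It read 10.37 and 10.38 on WT +Fe, 8.45 and 8.71 on WT -Fe, 9.30, 9.78 and 8.22 on bts-3 +Fe and 9.04, 9.55 and 8.01 on bts-3 -Fe. All bts-3 arrays lay below WT +Fe. The 3 pairs fell by similar small amounts (-0.27, -0.23 and -0.21), and the interaction was 1.55 (SE 0.22, limma adjusted p = 0.046). The cold-regulated COR15A had an interaction of 1.57 (SE 0.26) that did not pass (limma adjusted p = 0.0623). It read 8.02 and 7.61 on WT +Fe, 5.95 and 5.89 on WT -Fe, 5.26, 4.52 and 4.77 on bts-3 +Fe and 4.83, 4.39 and 4.38 on bts-3 -Fe. None of the 5 measured members of the cold and dehydration list passed, and their median interaction was 0.33.

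AT3G45710 (interaction 1.49, SE 0.22) and AT3G20850 (2.02, SE 0.28) completed the lost repressions. AT3G45710 read 11.02 and 11.04 on WT +Fe, 9.95 and 10.04 on WT -Fe, 9.38, 10.02 and 9.35 on bts-3 +Fe and 9.74, 10.41 and 9.98 on bts-3 -Fe. It was the brightest of them, higher on -Fe in all 3 bts-3 pairs and lower on -Fe in WT. AT1G07460 had the same form with both responses under 1 in size, -0.99 (SE 0.17) in WT and 0.55 (SE 0.14) in bts-3. Its levels of 2.31 to 3.17 in bts-3 were near the lower quartiles too.

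The 2 measured shoot markers of 6, RCA and LHCB4.1, were lower on -Fe in WT, as were the 5 lost repressions. The WT fall was called for neither marker (limma adjusted p = 0.0821 for RCA and 0.234 for LHCB4.1). In bts-3 the marker responses were -0.43 and -0.32, and those of the 5 genes ran from -0.24 to 0.77. With iron the genotypes overlapped for both markers. Their mean level was 8.03 and 7.55 on WT +Fe, 6.81 and 6.41 on WT -Fe, 7.47, 7.48 and 7.40 on bts-3 +Fe and 6.50, 7.19 and 7.53 on bts-3 -Fe. Their interactions were 0.99 (SE 0.38) and 0.62 (SE 0.38), and neither passed. Neither marker was at 0, and their part in the results was not tested. In RNA of whole roots, fewer cells of a type and less RNA per cell cannot be told apart. EXPA7 and EXPA18, expressed in root hairs, gave interactions of 0.03 (SE 0.32) and 0.40 (SE 0.27). Both were lower in bts-3 without overlap, by -0.65 and -0.95 with iron and by -0.62 and -0.56 without. In either direction 29.3% of all probe sets did not overlap with iron and 19.5% without. Interactions of 0.10, -0.01 and -0.19 were found for GAPC2, SAND and TIP41, commonly used as references, and none passed.

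**Figure D3:**
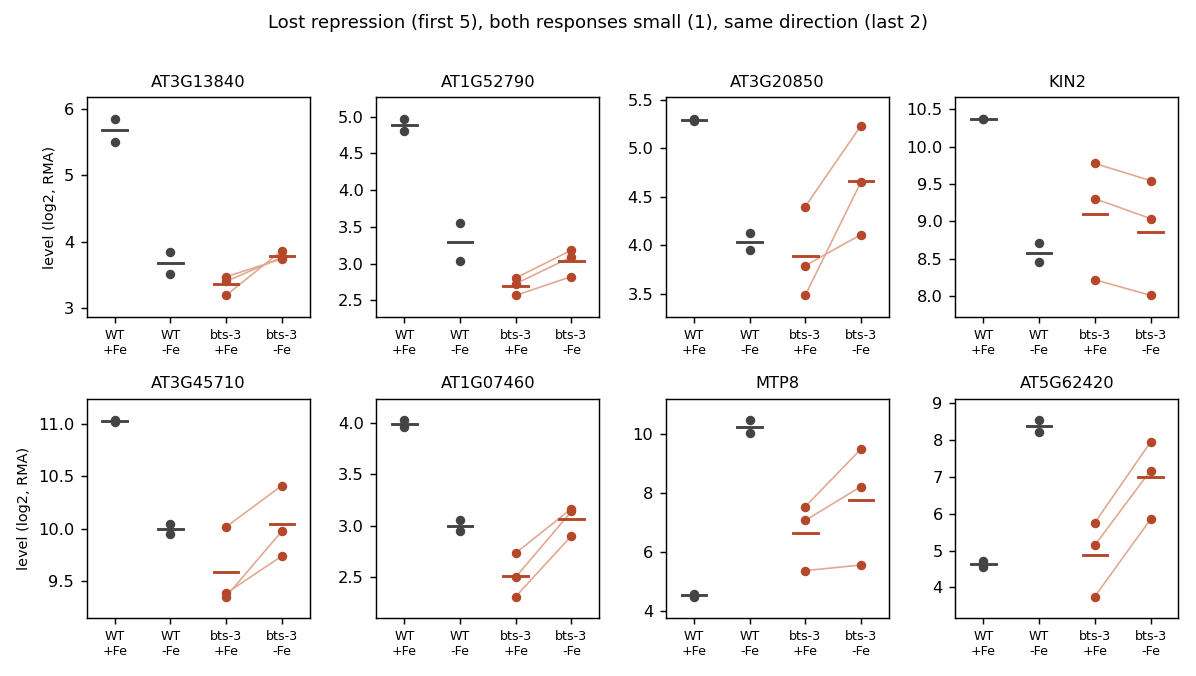
Levels (log2, RMA) in every array for the 5 lost repressions (AT3G13840 to AT3G45710), for AT1G07460 with both responses under 1 and for MTP8 and AT5G62420, whose responses kept their direction; points are arrays, short bars are means and thin lines join bts-3 pairs. The repressed genes are highest on WT +Fe, and the bts-3 +Fe arrays lie below both WT +Fe arrays in each of the first 6 panels.

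A reversed response was found for 4 genes. AT1G73120 and AT1G07885 were called in each genotype in opposite directions. AT1G73120 read 3.06 and 3.36 on WT +Fe and 6.69 and 5.70 on WT -Fe, but 7.74, 7.91 and 6.17 on bts-3 +Fe and 5.93, 5.73 and 4.31 on bts-3 -Fe. The media did not overlap in either genotype, and bts-3 +Fe was the highest group. It rose by 2.98 (SE 0.30) in WT (limma adjusted p = 0.00376) and fell by 1.95 (SE 0.25) in bts-3 (limma adjusted p = 0.0212). The 3 pairs differed by -1.81, -2.18 and -1.86, and the interaction was -4.93 (SE 0.39, limma adjusted p = 0.00334).

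AT1G07885 read 3.18 and 2.92 on WT +Fe, 5.82 and 4.90 on WT -Fe, 6.02, 6.52 and 5.20 on bts-3 +Fe and 4.49, 4.89 and 3.65 on bts-3 -Fe. The pair differences of -1.53, -1.63 and -1.55 were nearly equal although replicate 3 was lowest on both media. The interaction was -3.89 (SE 0.36, limma adjusted p = 0.00953). The other two, AT4G10510 and AT3G53980, were not called within either genotype. AT4G10510 read 5.60 and 6.25 on WT +Fe, 7.77 and 7.52 on WT -Fe, 8.49, 8.16 and 7.55 on bts-3 +Fe and 8.11, 7.01 and 5.92 on bts-3 -Fe (interaction -2.78, SE 0.41). AT3G53980 was the 1 reversed gene that was lower on -Fe in WT. It read 10.77 and 11.09 on WT +Fe, 9.65 and 10.10 on WT -Fe, 9.42, 9.79 and 9.93 on bts-3 +Fe and 10.27, 10.88 and 11.12 on bts-3 -Fe (interaction 2.09, SE 0.28).

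A gained response was found for 4 genes, in each of which bts-3 +Fe was the group that stood apart. PRX52, a class III peroxidase of the cell wall, read 4.25 and 4.42 on WT +Fe, 4.47 and 5.09 on WT -Fe, 9.90, 7.61 and 7.14 on bts-3 +Fe and 5.91, 4.01 and 4.87 on bts-3 -Fe. It fell by 3.29 (SE 0.31) in bts-3, in all 3 pairs, with a WT response of 0.44 (SE 0.38) and an interaction of -3.73 (SE 0.48, limma adjusted p = 0.0289). AT5G07610 read 4.35 and 4.47 on WT +Fe, 4.05 and 3.70 on WT -Fe, 7.19, 7.18 and 6.78 on bts-3 +Fe and 4.23, 4.49 and 4.36 on bts-3 -Fe. Here the bts-3 replicates agreed closely, and the interaction was -2.15 (SE 0.27, limma adjusted p = 0.0259).

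AT5G42610 and AT3G19320 were low on bts-3 +Fe instead. AT5G42610 read 4.79 and 4.61 on WT +Fe, 3.64 and 4.05 on WT -Fe, 2.45, 2.82 and 2.64 on bts-3 +Fe and 3.61, 4.56 and 4.60 on bts-3 -Fe. It rose by 1.62 (SE 0.19) in bts-3, with a WT value of -0.86 (SE 0.24) and an interaction of 2.48 (SE 0.31, limma adjusted p = 0.0259). AT3G19320 read 5.29 and 5.72 on WT +Fe, 5.80 and 5.75 on WT -Fe, 2.77, 4.01 and 3.36 on bts-3 +Fe and 5.02, 5.94 and 5.28 on bts-3 -Fe (interaction 1.77, SE 0.26). The bts-3 +Fe levels of AT5G42610 lie near the lower quartiles of the arrays, 2.61 to 2.99, as does replicate 1 of AT3G19320. The part of this floor in their responses was not tested. All 4 gained responses were called in bts-3 and none in WT. No fit that left out an array called AT3G19320.

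**Figure D4:**
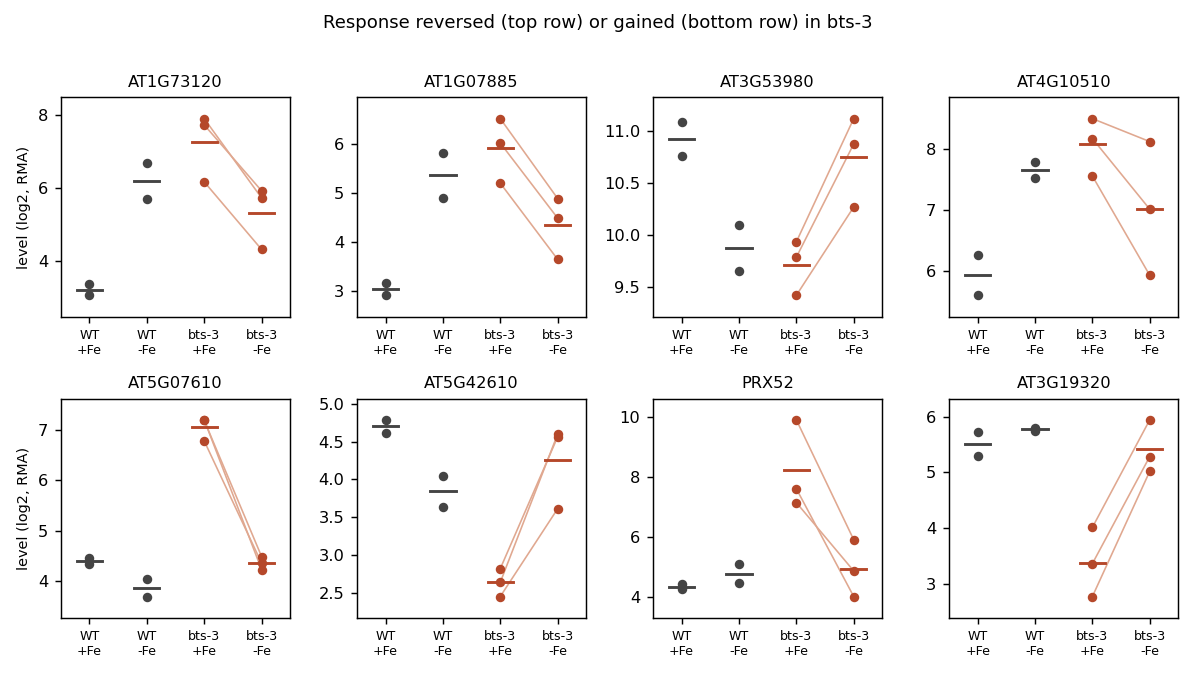
Levels (log2, RMA) in every array for the 4 reversed genes (top row) and the 4 gained ones (bottom row); points are arrays, short bars are means and thin lines join bts-3 pairs. The 3 pair lines of a gene run in 1 direction in all 8 panels, and in the bottom row bts-3 +Fe is the group apart.

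Which medium carried the difference was read from the group means. The gap between bts-3 and WT was larger with iron than without it in 31 of the 33 genes, MTP8 and AT5G62420 being the exceptions. With iron the arrays of the genotypes did not overlap for 32 of 33, beside 29.3% of all probe sets tested, and without iron for 11 of 33, beside 19.5%. For BHLH101 the gap was 3.71 with iron and -0.51 without, for S8H 4.27 and -1.82, for BGLU42 1.91 and -1.78, for MTP8 2.12 and -2.49, and for KIN2 -1.27 and 0.28. These genes had been chosen on the interaction, which holds all 4 groups, so the counts describe them and test nothing.

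**Figure D5:**
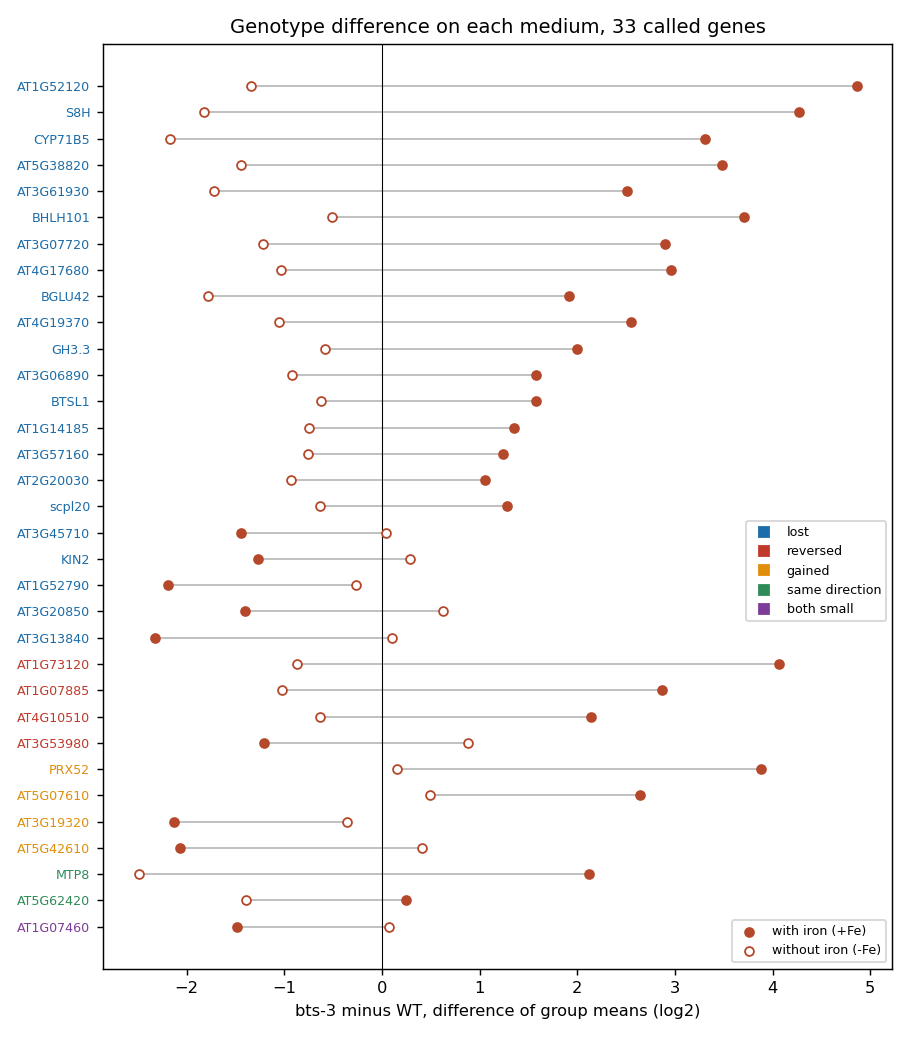
Difference of group means, bts-3 minus WT (log2), with iron (filled points) and without iron (open points) for the 33 called genes, whose names are coloured by class; the grey line between the points is as long as the interaction is large. Most filled points lie farther from 0 than the open ones, with MTP8 and AT5G62420 as exceptions.

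The genes just inside the threshold were AT1G14185 and AT3G45710, at adjusted p of 0.046 and 0.0464. Just outside lay ICL, isocitrate lyase of the glyoxylate cycle, at 0.0513, then UGT72E1, AT4G30490, AT1G35625 and AT5G08350, the last 3 at 0.0527. ICL had the form of a gained response, at 5.01 and 5.52 on WT +Fe, 5.63 and 5.73 on WT -Fe, 7.74, 6.60 and 6.30 on bts-3 +Fe and 5.90, 5.29 and 4.92 on bts-3 -Fe (interaction -1.92, SE 0.29).

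A reading that does not use the interaction was had by choosing genes on the call for the response of 1 genotype and reading the response of the other. The sizes of the WT and bts-3 responses share no array. The calls do, since the fit estimates the spread of a probe set from the arrays of both genotypes together. Choice and reading are therefore not independent, and the values describe the chosen sets. In WT 97 probe sets (0.58%) were higher on -Fe and 23 (0.138%) lower in the same fit. Over the 97 the median WT response, which chose them, was 2.08, and the median bts-3 response was 0.30, with 79 of 97 positive, 13 at 1 or more and 2 at -1 or less. The medians within bts-3 replicates 1, 2 and 3 were 0.77, 0.19 and 0.09, and 39, 9 and 8 of the 97 reached 1. Over all 16722 probe sets 616, 121 and 195 reached 1 in these replicates and 436, 203 and 219 reached -1, so replicate 1 had the most large differences in general. Over the 23 repressed in WT the median was -1.56 in WT and -0.08 in bts-3, and none reached 1 in size in bts-3.

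In the other direction, 32 probe sets (0.191%) were higher and 24 (0.144%) lower on -Fe in bts-3. The 32 had a median response of 1.53 in bts-3 and 0.37 in WT, with 27 of 32 positive in WT. The 24 had medians of -1.59 and -0.12, with 15 of 24 negative in WT. Called in both genotypes were 7 probe sets, 5.83% of the WT calls and 12.5% of the bts-3 calls, 5 in the same direction and 2, AT1G73120 and AT1G07885, in opposite ones. Across all 16722 probe sets the responses of the 2 genotypes correlated at r = 0.241 (Spearman 0.245). This is a description across genes, which are not independent replicates.

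Some responses were retained. Besides AT5G62420 the probe sets called in the same direction were AT5G04730, the serine carboxypeptidase-like genes SCPL15 and scpl22, and AT1G72200. SCPL15 read 7.41 and 7.17 on WT +Fe, 8.70 and 8.84 on WT -Fe, 6.17, 6.54 and 5.82 on bts-3 +Fe and 7.60, 7.50 and 7.48 on bts-3 -Fe. It rose by 1.48 (SE 0.21) in WT and by 1.35 (SE 0.17) in bts-3, with an interaction of -0.13 (SE 0.27). The bts-3 arrays lay below the WT arrays on each medium. For scpl22 the responses were 1.58 (SE 0.19) and 0.98 (SE 0.16), and for AT1G72200 they were 1.21 (SE 0.18) and 1.06 (SE 0.15). AT5G04730 had responses of 2.75 (SE 0.20) and 1.64 (SE 0.17) and an interaction of -1.11 (SE 0.26) that did not pass.

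Zinc homeostasis genes did not pass. The transporter gene ZIP9 read 5.12 and 5.61 on WT +Fe, 7.55 and 7.16 on WT -Fe, 5.92, 6.48 and 5.79 on bts-3 +Fe and 7.24, 5.92 and 5.66 on bts-3 -Fe (interaction -1.78, SE 0.51, limma adjusted p = 0.341). The regulators BZIP19 and BZIP23 had interactions of -0.31 (SE 0.25) and 0.00 (SE 0.22), and the 4 measured members of 12 had a median of -0.16. In the oxidative stress list the glutathione transferase GSTU25 had an interaction of -1.84 (SE 0.72) and the zinc finger factor ZAT10 of -0.89 (SE 0.85), and neither passed.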

How the data were processed

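The values the authors deposited are on the log2 scale; the submitters' processing notes name RMA and Affymetrix Expression Console. RMA draws the overall distributions of the arrays together, and it understates differences between weak signals. The deposited arrays still differed, with medians of 5.27 to 5.45 and lower quartiles of 2.61 to 2.99. Version, background and detection calls are not given in the sources used here. Values ran from 0.713 to 14.1, and the number of arrays limits the precision. The platform annotation paired 16722 of 28583 probe sets with exactly 1 gene, and 16574 of these were matched by gene ID to RefSeq (TAIR10.1), used for names only. Another 759 had several genes and 11102 were unnamed.

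The 16722 probe sets were fitted without a filter in limma 3.58.1 (R 4.3.3; lmFit, eBayes), with 4 group means and a biological replicate block inside bts-3, leaving 4 residual and 4.85 prior degrees of freedom. The contrast was the bts-3 response minus the WT response, two-sided, with calls where the p adjusted by Benjamini-Hochberg was under 0.05. Sizes of 1 on the log2 scale set the classes.

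In bts-3, the deviations of same-numbered +Fe and -Fe arrays from their group means correlated at r = 0.296, 0.511 and 0.387. Unlike numbers gave -0.29 to -0.107. Deviations cancel within a group, so positive values for like numbers push those for unlike numbers down. The values for unlike numbers are therefore no separate evidence. On the values for like numbers, the numbers were taken to pair the bts-3 arrays. That pairing comes from the data, since no label states it. Same-numbered WT arrays gave r = -0.107, and WT was left unpaired. On simulated data for this contrast (16722 probe sets) the fit recovered 7.02% of 57 changes of 1 and 72.3% of 47 changes of 2. It recovered 100% of 45 changes of 3 and 96.1% of 51 changes of 4, with 2 false calls. The simulation had the bts-3 pairing built in, with independent errors of equal spread in every array. It therefore cannot show whether the pairing holds or how unlike arrays affect the calls. All probe sets called in the contrast are named, then the next 5, then members of the lists. Members and lists were chosen with earlier results of these data known. Of 155 loci in the lists 49 were measured, and the lists for internal iron transport, iron storage, suberin, phosphate, endodermis, vascular tissue and root tip had no measured member. For loci with several probe sets the brightest stands in the list counts.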

Additional observations from a re-analysis of the deposited data

Results flagged for a closer look

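The 33 interactions were flagged because the iron response differed between the genotypes by a test of the difference itself, and among them the 4 reversed genes because the direction turned as well. Their interactions were -4.93 for AT1G73120, -3.89 for AT1G07885, 2.09 for AT3G53980 and -2.78 for AT4G10510. Outside the comparison, with all 28583 probe sets fitted, 79 were called, of which 36 had 1 gene, 2 had several and 41 were among the 11102 probe sets that are unnamed here. Those 41 are not described.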

How the results depend on the processing

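The main fit called 33 probe sets, 22 lost, 4 reversed and 4 gained. Without the replicate block in bts-3 the counts were 1, 1, 0 and 0. With a block across both genotypes 17 were called, 12 lost and 1 gained, and with a block within each genotype 12 were called, 8 lost and 0 gained. With crossed WT numbers in that block 19 were called, 12 lost and 2 reversed. The 33 held all 17, all 12 and 17 of the 19 of these. Array weights gave 65 calls with 46 lost and 9 gained, and trend with robust eBayes gave 74 with 46 lost and 13 gained. At an adjusted p under 0.01 there were 4 calls, and under 0.1 there were 65. With a response size of 0.5 in place of 1, 7 of the 33 were reversed and 2 gained, and with 1.5, 2 were reversed. Leaving out 1 array gave 1 to 87 calls, 1 to 65 lost, 0 to 10 reversed and 0 to 9 gained. Where a WT array was left out, its group held 1 sample, assumed to vary like the others. Other probe set filters and repeated quantile normalization gave 28 to 43 calls. Each of the 33 genes stayed called in 5 to 20 of its alternatives, where a left-out bts-3 pair counts for each of its arrays. The block, filter, trend and threshold settings do not alter the size of an interaction, so they bear on the calls alone. Fits without an array also hold smaller samples, and why the calls differ between settings was not tested. The median of the list of iron uptake and coumarins ranged from -4.59 to -3.70. Of its 17 loci 4 were measured, the coumarin genes S8H, BGLU42 and COSY and the manganese transporter gene MTP8. The median says nothing of its unmeasured loci.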

Other observations

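A few genes called in bts-3 and not in WT were singled out after their values were seen and stand for no group. EXPB1, a beta-expansin, had responses of 1.53 in bts-3 and 0.10 in WT, XTH21, a xyloglucan endotransglucosylase, of 1.46 and 0.35, XTH16 of 1.02 and 0.06, and GH9B17, a glycosyl hydrolase, of 2.14 and 0.26. The difference passed for none of them, with interactions of 1.43, 1.12, 0.96 and 1.88. The subtilase gene SBT3.3 had responses of -2.47 in bts-3 and 0.12 in WT (interaction -2.59, limma adjusted p = 0.079).

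Of the 33 called loci, 12 (36.4%) carry a tag of chromosome 3, beside 20.4% of the 16670 tested probe sets with a locus. No test was made of this share.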
